A study of Mus musculus with 6 samples.

Results

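The insulin-like growth factor (IGF) genes are described here in the vestibular sensory epithelium of the mouse, as measured by bulk RNA-seq in 3 Control animals and 3 animals exposed to IDPN (3,3'-iminodipropionitrile), a compound that damages hair cells (HCs), the sensory cells of the inner ear. The members were chosen by gene symbol: the ligands Igf1 and Igf2, the receptors Igf1r and Igf2r, and the binding proteins Igfbp2 to Igfbp7. All 10 were found among the 52636 genes of the count table. The groups were male 129S1/SvImJ mice, 2 to 4 months old at the start, that drank either plain water (Control) or water with 30 mM IDPN (IDPN) for 8 weeks. Each library came from 1 animal, from which the 2 utricles and 6 cristae were pooled, so every value mixes HCs, supporting cells and the tissue beneath them. All 6 libraries carry the same batch label. All 3 Control titles begin with 1 code, which is absent from the IDPN titles, so whatever that code marks cannot be told apart from IDPN. Within IDPN, the titles of replicates 2 and 3 begin with a shared code that replicate 1 does not have. The comparison asks which IGF genes differ in this tissue after a sustained ototoxic exposure.

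IGF1 and IGF2 are secreted peptides that act mainly through IGF1R, a receptor tyrosine kinase that signals to the PI3K-AKT and RAS-MAPK cascades. IGF2R, also the mannose 6-phosphate receptor, carries IGF2 to lysosomes and does not signal in this way. The binding proteins hold IGFs in the extracellular space, where they can limit or prolong access to the receptor, and proteases cut them to release the ligand. IGF1 is known in the inner ear for its part in the development and survival of HCs and ganglion neurons.

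With 3 libraries a group, 2 of the 10 genes passed the test. Igfbp5 was lower and Igfbp6 higher in IDPN, by 2.15-fold and 1.57-fold. Igf2 lay lower and Igfbp7 higher in every IDPN library than in any Control library without passing the test, and Igfbp3 stood at a very high value in 1 IDPN library. The remaining members, Igf1, Igf1r, Igf2r, Igfbp2 and Igfbp4, overlapped between the groups, although Igfbp2 and Igfbp4 did not when libraries were scaled by total counts.

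A gene was called when DESeq2 gave a Benjamini-Hochberg adjusted p (Padj) under 0.05 over all genes tested and a fold change above 1.5. This called 5.75% of the 17650 genes tested, 2.32% higher and 3.42% lower in IDPN, and the edgeR quasi-likelihood test called 3.21% of 16310. Of the 9 members with a Padj, 1 was called higher and 1 lower by DESeq2, and edgeR called the same 2. The groups did not overlap for 22.5% of all genes tested and for 4 of these 9 members. The median log2 fold change was -0.01 over the 9 members and 0.02 over all genes tested. Values are normalized counts, that is, estimated counts divided by a size factor per library, and fold changes are relative to the typical gene. With size factors set by total counts, the median gene moved up by 0.25 on the log2 scale, and the 410 higher and 604 lower calls became 609 higher and 214 lower.

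**Figure D1:**
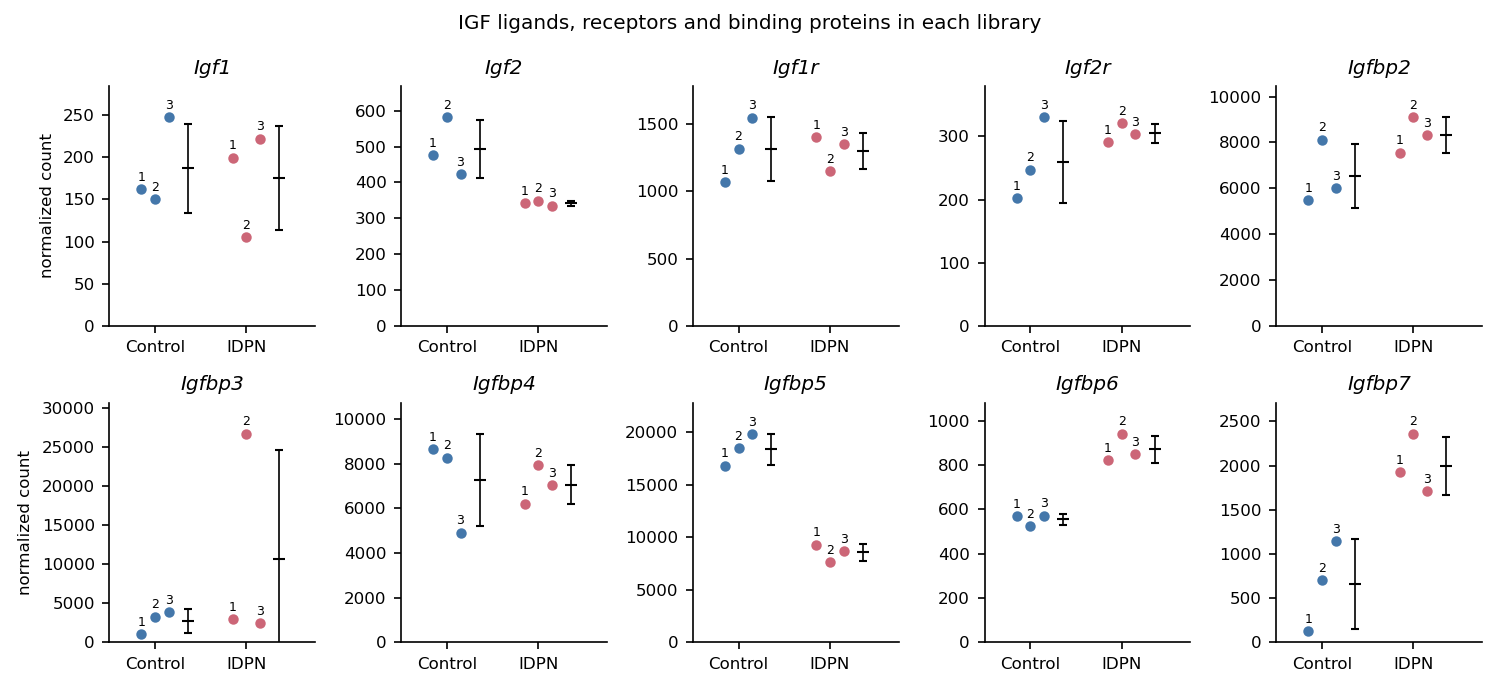
Normalized counts (vertical axes, linear, from 0) of the 10 IGF genes in each library, with points numbered by replicate, blue for Control and red for IDPN. Black bars give the group mean and SD (n = 3), cut off at 0. Igfbp5 and Igfbp6 separate widely between the groups, Igf2 and Igfbp7 separate without passing the test, and Igfbp3 is set by IDPN 2.

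Each library held 40474847 to 43566332 estimated counts, and the 10 members together took between 0.0675% and 0.129% of them. A pair of libraries stood apart from their groups for several of the genes below. IDPN 2 held the extreme value of Igfbp3, and Control 1 the lowest value of Igfbp7, so values without both libraries are given for members whose call they change. In the lists of other IGF pathway genes below, 8 genes were called, against 3 without both libraries. That change is not given for each of those genes. Of 12 HC markers, 8 were called lower and 0 higher in IDPN, their summed level ran from 32258 to 36104 in Control and from 20099 to 22544 in IDPN, and all 12 were above 0. Of the supporting cell markers, 2 of 11 tested were called lower, with sums of 412482 to 604587 and 308961 to 364244. Of the neuronal markers, 3 of 7 tested were called lower, with sums of 5028 to 5296 and 3213 to 3479. Of 12 macrophage markers, 1 was called higher, with sums of 5988 to 7704 and 8567 to 13121. Sums of the fibroblast, endothelial, Schwann cell, melanocyte, dark cell, bone and erythroid markers overlapped between the groups, although 4 of 5 erythroid markers tested were called higher. Each sum is weighted towards its most abundant genes. In Control, Coch alone held 1544630 to 2478050 of a fibroblast sum of 1738296 to 2772615. Of the 12 fibroblast markers, 8 were higher and 4 lower in IDPN, with a median log2 fold change of 0.18. In these lists 1 of 12 fibroblast, 1 of 12 endothelial and 1 of 8 melanocyte markers were called lower, 1 of 10 Schwann cell markers higher, and 0 of 8 dark cell and 0 of 7 bone markers either way. The part of these cell types in the values below was not tested. In such tissue libraries, fewer cells of a type and less RNA per cell cannot be told apart.

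Because Igfbp5 and Igfbp6 were the genes called, their promoters are shown, as 250 bases before to 50 after the RefSeq start on GRCm38.p6. The Igfbp5 promoter is at chr1:72874816-72875115 on the minus strand, and that of Igfbp6 at chr15:102143936-102144235 on the plus strand. The Igfbp6 window lies wholly before the gene start at 102144362 in the gene model used for its position below. Capitals mark matches to TATAAA, the core of the element bound by the TATA-binding protein, or to CCAAT, which is read by NF-Y. A further element, GGGCGG, read by SP1, was searched as well, and each was searched on both strands.
Igfbp5: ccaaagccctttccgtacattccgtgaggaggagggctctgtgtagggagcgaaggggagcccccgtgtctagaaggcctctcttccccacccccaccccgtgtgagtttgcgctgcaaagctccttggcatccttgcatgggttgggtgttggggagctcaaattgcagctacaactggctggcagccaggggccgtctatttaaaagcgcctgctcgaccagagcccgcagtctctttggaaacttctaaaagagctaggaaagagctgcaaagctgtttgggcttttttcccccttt
Igfbp6: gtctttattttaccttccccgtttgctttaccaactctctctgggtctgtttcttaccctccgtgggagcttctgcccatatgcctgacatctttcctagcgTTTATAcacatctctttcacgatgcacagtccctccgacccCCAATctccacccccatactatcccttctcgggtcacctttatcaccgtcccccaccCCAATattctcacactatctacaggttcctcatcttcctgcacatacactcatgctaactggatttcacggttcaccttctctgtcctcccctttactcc

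The Igfbp5 window held 0 matches to the 3 motifs, and its GC content was 56.3%. The Igfbp6 window held 1 TATAAA match, read on the opposite strand, and 2 CCAAT matches, with a GC content of 49.7%. For comparison, TATAAA was found in 13.6% of all promoters, CCAAT in 37.4% and GGGCGG in 35.7%, over 32851 RefSeq promoters of the same length. The motifs do not overlap each other here. Only exact matches were counted, so a window without a match can still hold a near variant of a motif. A match in these letters is a description of the window and not a measured binding site.

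Igfbp5 encodes a binding protein that attaches to extracellular matrix and has high affinity for both IGFs. The gene (ENSMUSG00000026185) lies on chromosome 1 from 72857932 to 72874884, on the minus strand of GRCm38, with 4 exons in its main transcript. Its normalized counts were 16816, 18461 and 19787 in Control replicates 1 to 3, against 9313, 7646 and 8701 in the same order in IDPN. The highest IDPN library was thus well below the lowest Control library. The mean fell from 18354 ± 1488 to 8553 ± 843 (SD, n = 3 each), a log2 fold change of -1.10 (SE 0.15, 95% interval -1.40 to -0.80, DESeq2 Padj = 1.24e-10). Igfbp5 ranked 66 by p among all genes. The edgeR adjusted p was 0.00846. Leaving out each library in turn gave log2 fold changes from -1.16 to -1.03, and scaling by total counts gave -0.85 (DESeq2 Padj = 0.0147).

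Of the 12 HC markers, 8 were also called lower, and the other 4 (Atoh1, Cabp2, Cib2 and Myo7a) were not. The summed HC markers in IDPN were 0.618 of their level in Control, and Igfbp5 was 0.466 of its own. On the log2 scale, the ratio of Igfbp5 to the HC marker sum was -1.07, -0.97 and -0.71 in Control against -1.11, -1.56 and -1.30 in IDPN, so that every IDPN library was below every Control library. Cabp2, which was not called, was the most abundant HC marker and held 12393 of the 35183 in Control 1. Against Gfi1 alone, the log2 ratio of Igfbp5 was 2.9012, 2.8918 and 2.7751 in Control and 3.0017, 2.9595 and 2.9046 in IDPN. Here every IDPN library was above every Control library, by a narrow margin. Gfi1 is among the genes most like Igfbp5 over these same libraries (next paragraph). A near-constant ratio follows from that likeness and is no separate result. Gfi1 (log2 fold change -1.21), Slc17a8 (-1.16) and Ocm (-1.98) fell more than Igfbp5, and the other HC markers did not. The sums of the supporting cell and neuronal markers were 0.647 and 0.644 of their Control level.

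Among 11770 genes with a mean of at least 100 normalized counts, the 3 whose log2(normalized count + 1) followed Igfbp5 most closely over the 6 libraries were Erich3 (Pearson r = 0.998), Gfi1 (0.997) and 1700007G11Rik (0.996). Gfi1 is also on the HC marker list. The 3 genes were picked for their likeness over the same 6 libraries, which fall into 2 groups, and r is given as a description.

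Igfbp6 encodes a binding protein that prefers IGF2 over IGF1. The gene (ENSMUSG00000023046) lies on chromosome 15 from 102144362 to 102149511, on the plus strand, with 4 exons. Its normalized counts were 569, 525 and 571 in Control against 823, 941 and 850 in IDPN. The 3 Control libraries were close together and all below the lowest IDPN library. The mean rose from 555 ± 25.9 to 871 ± 61.8 (SD, n = 3 each), a log2 fold change of 0.65 (SE 0.17, 95% interval 0.32 to 0.98, DESeq2 Padj = 0.00438). The edgeR adjusted p was 0.0268, and Igfbp6 ranked 529 by p. Without any 1 library the log2 fold change lay between 0.59 and 0.69. The call was lost without Control 1 and IDPN 2 together (0.61, DESeq2 Padj = 0.161). With offsets for GC content the estimate of 0.54 (DESeq2 Padj = 0.0344) was under the fold threshold. The macrophage marker sum was 1.51 of its Control level in IDPN. Without Lyz2, its most abundant gene and the only macrophage marker called, the ratio was 1.21, and the groups overlapped (2253 to 3107 in Control, 2742 to 3988 in IDPN).

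The genes closest to Igfbp6 by the same measure were Prss50 (r = 0.995), Gm40309 (0.990) and Pqlc3 (0.989), again as a description over 6 libraries.

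**Figure D2:**
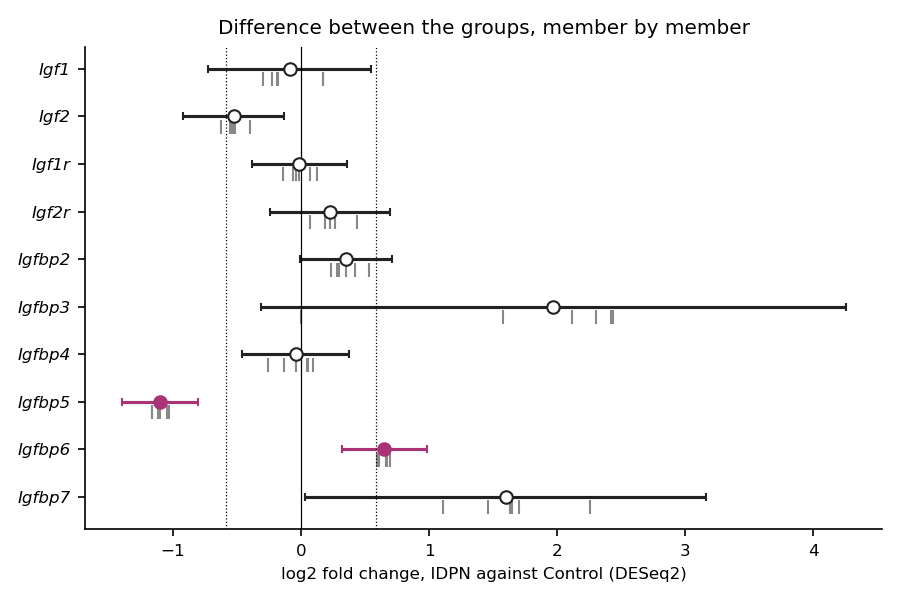
Log2 fold change of each member, IDPN against Control, from DESeq2 (horizontal axis), with its 95% interval. Filled points are the called genes, grey ticks the values without each library in turn, and dotted lines a fold change of 1.5. Igfbp5 and Igfbp6 keep their ticks close to the estimate, whereas those of Igfbp3 run from 0.0012 to 2.44.

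Igf2, the ligand gene of the imprinted cluster on chromosome 7 (142650766 to 142666816, minus strand), had normalized counts of 477, 582 and 423 in Control against 343, 349 and 335 in IDPN. All 3 IDPN libraries were below the lowest Control library, and they differed little among themselves. The means were 494 ± 80.9 and 342 ± 7.19 (SD, n = 3 each), a log2 fold change of -0.53 (SE 0.20, DESeq2 Padj = 0.106), which did not pass the test. Without Control 3 it passed (-0.63, DESeq2 Padj = 0.0291). With total-count scaling the log2 fold change was -0.26 and the groups overlapped. Of the exon bases of Igf2 in GENCODE M21, 62.8% are shared with the same-strand gene model Gm49394 and 1.71% with Igf2os on the opposite strand. Reads there can be of uncertain origin. The counts were made on GENCODE M15, and whether it holds these 2 gene models was not checked. H19, the neighbouring noncoding RNA of the same imprinted cluster, was near the detection limit, at 7.3, 30.0 and 16.0 normalized counts in Control against 9.9, 3.0 and 6.5 in IDPN (log2 fold change -1.44, DESeq2 Padj = 0.414). Igf2bp2, whose protein binds Igf2 mRNA, had a log2 fold change of 0.22 (DESeq2 Padj = 0.732).

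Igf1 was expressed at 163, 150 and 247 normalized counts in Control against 199, 105 and 222 in IDPN. The groups overlapped, with a log2 fold change of -0.09 (SE 0.32, 95% interval -0.72 to 0.55, DESeq2 Padj = 0.939). Its direction reversed under total-count scaling (0.15), without Control 3 (0.17) and without IDPN 2 (0.17).

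The signalling receptor Igf1r had 1070, 1316 and 1546 normalized counts in Control against 1403, 1150 and 1349 in IDPN. The IDPN libraries lay within the range of Control, and the log2 fold change of -0.01 (SE 0.19, 95% interval -0.38 to 0.36, DESeq2 Padj = 0.987) changed sign under total-count scaling (0.23). Igf2r had 203, 247 and 330 in Control against 290, 320 and 303 in IDPN (log2 fold change 0.23, SE 0.24, DESeq2 Padj = 0.726), and the groups overlapped. The insulin receptor Insr, which can pair with IGF1R in hybrid receptors, had a log2 fold change of 0.08 (DESeq2 Padj = 0.900).

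Igfbp7 encodes a low-affinity, IGFBP-related matrix protein (chromosome 5, 77349240 to 77408041, minus strand). Its normalized counts were 131, 704 and 1144 in Control against 1924, 2359 and 1712 in IDPN. Every IDPN library exceeded every Control library, but the Control libraries themselves spread widely. The means were 660 ± 508 and 1998 ± 330 (SD, n = 3 each), a log2 fold change of 1.60 (SE 0.80, DESeq2 Padj = 0.279, edgeR adjusted p = 0.165). Without Control 1 the log2 fold change was smaller and passed (1.11, DESeq2 Padj = 0.000658), as it did without Control 1 and IDPN 2 together (0.97, DESeq2 Padj = 0.00821). Without Control 3 it was larger and did not pass (2.26, DESeq2 Padj = 0.0586), and without any 1 of the other 4 libraries it lay between 1.46 and 1.70 and did not pass. Of its exon bases, 7.03% lie opposite those of Polr2b, and this library protocol does not mark strand.

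Igfbp3, the main carrier of IGFs in serum, had 1064, 3278 and 3871 normalized counts in Control against 2973, 26689 and 2504 in IDPN. IDPN 2 was far above the other 5 libraries, and IDPN 1 and IDPN 3 lay inside the range of Control. DESeq2 gave a log2 fold change of 1.97 (SE 1.16) and no p, because its Cook's distance filter removes genes with such a value. The edgeR adjusted p was 0.257. Without IDPN 2 the log2 fold change was 0.0012 (DESeq2 Padj = 1.00), and without Control 1 and IDPN 2 together it was -0.39 (DESeq2 Padj = 0.490).

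Igfbp2 had 5470, 8115 and 5994 normalized counts in Control against 7559, 9097 and 8319 in IDPN. The groups overlapped through Control 2 alone, with a log2 fold change of 0.35 (SE 0.18, DESeq2 Padj = 0.306). With total-count scaling the groups did not overlap, and the log2 fold change was 0.60 without passing (DESeq2 Padj = 0.0880). Igfbp4, which is cut by the protease PAPP-A, had 8655, 8265 and 4912 in Control against 6213, 7944 and 7033 in IDPN. Its log2 fold change was -0.04 (SE 0.21, 95% interval -0.46 to 0.38, DESeq2 Padj = 0.958). Total-count scaling turned it to 0.24, and the groups then did not overlap.

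Igfbp2 and Igfbp5 are neighbours on chromosome 1, on opposite strands and end to end, with 5457 bases and 0 protein-coding genes between them. The log2 ratio of Igfbp2 to Igfbp5 normalized counts was -1.62, -1.19 and -1.72 in Control against -0.30, 0.25 and -0.06 in IDPN. The IDPN libraries all had a higher ratio than the Control libraries, with a difference of 1.47 between the group means. Igfbp3 lies 3539 bases from Igfbp1 on chromosome 11, and Igfbp1 had 0 counts in all 6 libraries.

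To compare levels between genes, normalized counts were divided by the length in kilobases (kb) of each gene's longest protein-coding transcript. In Control, the order of the level per kb was Igfbp2 (4993 ± 1072), Igfbp5 (3056 ± 248), Igfbp4 (1900 ± 537), Igfbp3 (1131 ± 611), Igfbp7 (550 ± 423), Igfbp6 (499 ± 23.3), Igf1r (115 ± 20.9), Igf2 (105 ± 17.1), Igf2r (29.2 ± 7.28) and Igf1 (26.5 ± 7.51), as mean ± SD with n = 3. In every Control library Igfbp2 to Igfbp6 were above the ligands and receptors, whereas the range of Igfbp7, which was 109 in Control 1, overlapped those of Igf1r and Igf2. Among neighbours in this order, the library ranges of Igfbp4 and Igfbp3, of Igfbp3 and Igfbp7, of Igfbp7 and Igfbp6, of Igf1r and Igf2, and of Igf2r and Igf1 overlapped, and the other neighbours did not. With merged exon length in place of transcript length, Igf2 and Igf1r changed places.

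In IDPN, Igfbp5 had rank 5, at 1424 ± 140 per kb (SD, n = 3), below Igfbp2 (6369 ± 588), Igfbp4 (1844 ± 226) and Igfbp7 (1665 ± 275). Igfbp3 was second by its mean of 4429 ± 5713, but 1228 and 1034 in IDPN 1 and IDPN 3 were below every IDPN value of Igfbp5. Igfbp6 followed at 783 ± 55.6, and then Igf1r (114 ± 11.7), Igf2 (72.5 ± 1.52), Igf2r (34.3 ± 1.68) and Igf1 (24.9 ± 8.77). The ranges of Igfbp4 and Igfbp7 overlapped, as did those of Igfbp7 and Igfbp5, and merged exon length put Igfbp7 above Igfbp4. Igf1r and Igf2, which overlapped in Control, did not overlap in IDPN.

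As shares of the summed IGFBP level per kb, Igfbp5 made up 27.2%, 22.2% and 26.9% in Control against 12.4%, 5.27% and 11.3% in IDPN. Igfbp7 made up 1.06%, 4.24% and 7.80% in Control against 12.8%, 8.14% and 11.1% in IDPN. Igfbp2 was the most abundant in 5 libraries, and in IDPN 2 Igfbp3 took 45.7% of the sum. These shares add to 100% in each library, so a rise of 1 gene lowers the share of the others.

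**Figure D3:**
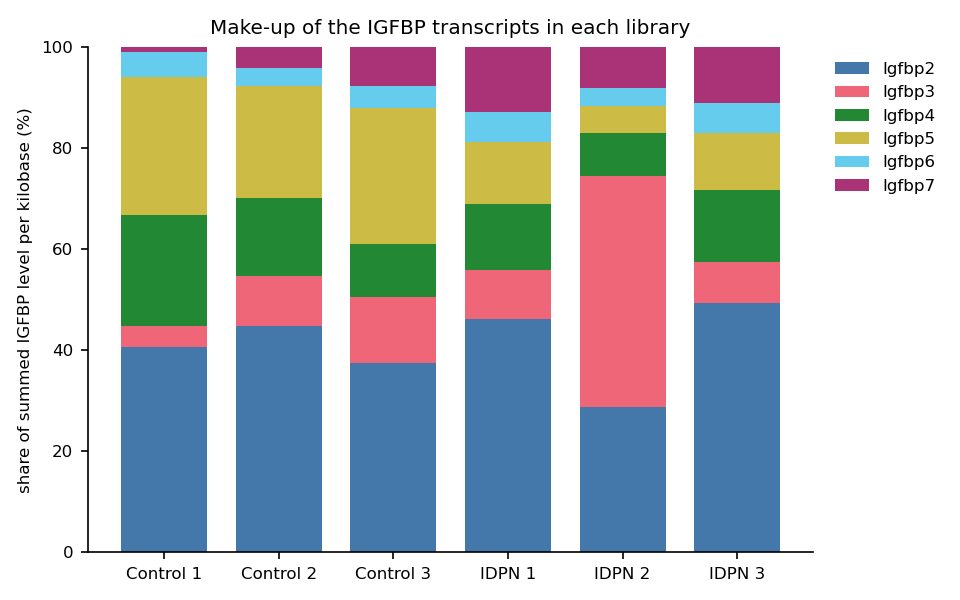
Share of each of the 6 binding proteins in the summed IGFBP level per kb (vertical axis, percent) in each library. The Igfbp5 band is wider in the 3 Control libraries (22.2% to 27.2%) than in the 3 IDPN libraries (5.27% to 12.4%), and Igfbp3 fills 45.7% of IDPN 2.

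Proteases that cut binding proteins, and the inhibitors of those proteases, were described next. Of 13 listed genes, 8 were tested, 2 were called higher and 1 lower, with a median log2 fold change of 0.0024. Pappa encodes PAPP-A, which cuts IGFBP4 and IGFBP5. Its raw counts were 25, 15 and 22 in Control against 2, 0 and 0 in IDPN. The pooled counts of 62 and 2, adjusted for size factors, gave a Control to IDPN ratio of 36.1, with a 95% exact interval of 9.57 to 305 that covers counting error only. The test called it lower (DESeq2 Padj = 0.00242, edgeR adjusted p = 0.0191). Without Control 3, or without Control 1 and IDPN 2 together, DESeq2 gave no Padj for this low count. Pappa2 had 1 count in 1 library.

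Stanniocalcins bind and inhibit PAPP-A. Stc1 had 132, 91.2 and 53.4 normalized counts in Control against 489, 315 and 608 in IDPN. The lowest IDPN library was more than the highest Control library, with a log2 fold change of 2.36 (SE 0.33, DESeq2 Padj = 1.36e-10). Stc1 kept its call in all 16 alternatives. Stc2 had 25 counts over the 3 Control libraries (3, 7 and 15) and 0 in IDPN, at least 9.70-fold lower against a floor of 3 counts over the group. That bound takes the Control total as exact and leaves out the spread between animals. DESeq2 gave Stc2 no Padj.

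Adamts1, a protease of matrix proteins and binding proteins, had 212, 235 and 227 normalized counts in Control against 257, 1229 and 1302 in IDPN. Only IDPN 2 and IDPN 3, which share a title code that IDPN 1 does not have, were raised well above Control. The call (log2 fold change 2.05, SE 0.66, DESeq2 Padj = 0.0354) was kept without IDPN 1 and lost without any 1 of the other 5 libraries, where the DESeq2 Padj was between 0.102 and 0.240.

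Several secreted proteins outside the classical family carry an IGFBP domain. Of 11 such genes, 6 were tested and 1 was called higher, with a median log2 fold change of 0.17. Nov, which encodes the matricellular protein CCN3, had 2555, 2156 and 1577 normalized counts in Control against 5980, 8341 and 7550 in IDPN. The groups were far apart, with a log2 fold change of 1.80 (SE 0.20, DESeq2 Padj = 7.18e-16), and the call was kept in all 16 alternatives. Cyr61 (CCN1) had 1204, 1083 and 998 in Control against 1528, 30703 and 1694 in IDPN, and DESeq2 gave it no Padj. Ctgf (CCN2) had 938, 1289 and 1502 in Control against 934, 8999 and 1403 in IDPN (log2 fold change 1.60, DESeq2 Padj = 0.419), and its log2 fold change was -0.09 without IDPN 2. Cyr61, Ctgf and Igfbp3 thus had their extreme value in the same library.

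**Figure D4:**
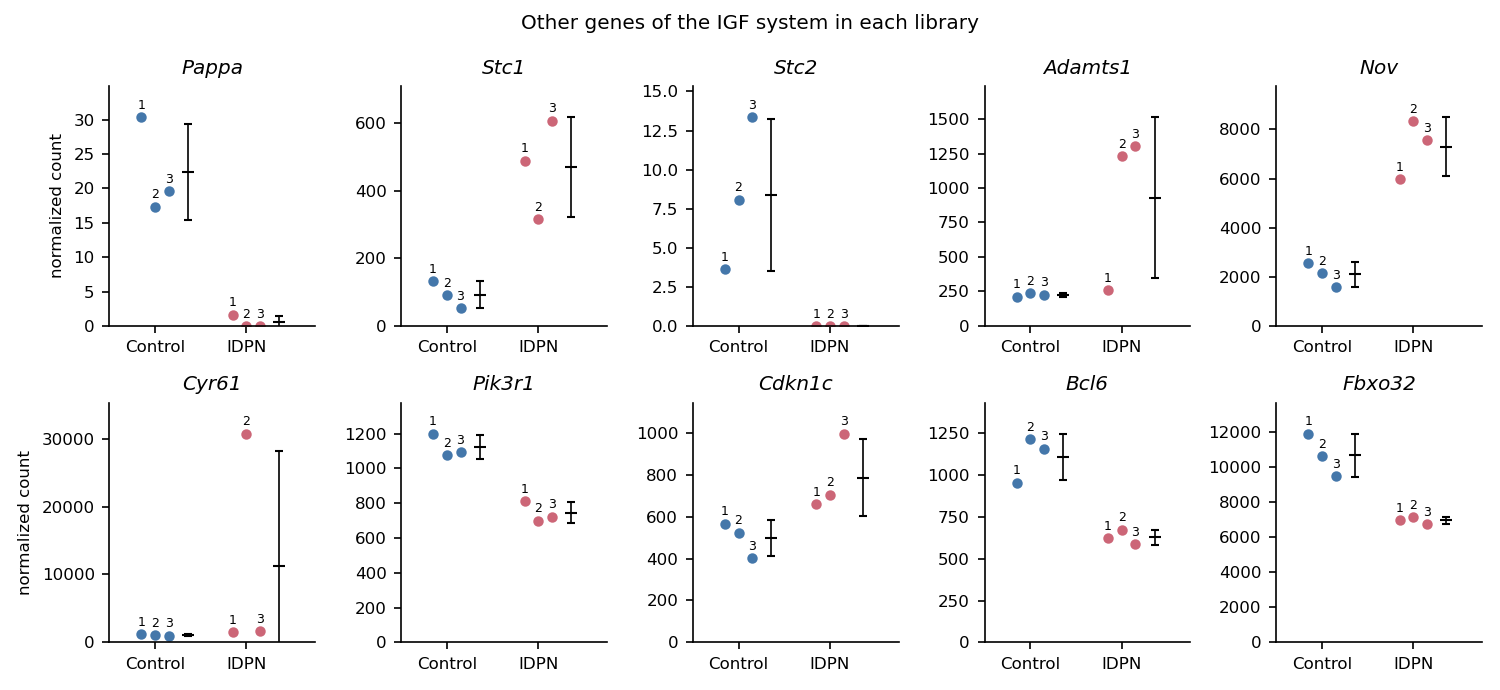
Normalized counts (vertical axes, linear, from 0) of 10 other genes of the IGF system in each library, numbered by replicate, with the group mean and SD (n = 3) in black, cut off at 0. Stc1 and Nov are higher and Pappa and Bcl6 lower in all 3 IDPN libraries, whereas Cyr61 is raised far above the rest in IDPN 2 and Adamts1 in IDPN 2 and IDPN 3.

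The pathway below the receptor was read from lists of its components. Of the 10 tested genes of the insulin receptor family, other ligands and adaptors, 0 were called, with a median log2 fold change of 0.09. Irs1, an adaptor of IGF1R, had 175, 170 and 183 normalized counts in Control against 148, 54.2 and 117 in IDPN. All IDPN libraries were below Control, but the log2 fold change of -0.72 (SE 0.34) did not pass (DESeq2 Padj = 0.243). Irs2 had a log2 fold change of 0.15 (DESeq2 Padj = 0.883). Igfals, which encodes the acid-labile subunit of the serum IGF complex, was low in both groups (9.0 to 22.4 normalized counts). The insulin genes Ins1 and Ins2 and the adaptor Irs4 had 0 counts in every library.

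Of 29 PI3K-AKT-mTOR genes tested, 1 was called, with a median log2 fold change of 0.14. This was Pik3r1, the p85-alpha regulatory subunit, at 1199, 1076 and 1093 in Control against 813, 701 and 723 in IDPN. The groups did not overlap, but the log2 fold change of -0.59 (SE 0.17, DESeq2 Padj = 0.00999) is at the fold threshold, and the call was lost with edgeR (-0.58, edgeR adjusted p = 0.0389), with total-count scaling (-0.33) and without Control 1, IDPN 2 or IDPN 3. Of 18 RAS-MAPK genes, 0 were called by DESeq2, with a median of 0.26.

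FOXO transcription factors are held out of the nucleus by AKT. Of 16 FOXO factors and targets tested, 2 were called lower and 0 higher, with a median log2 fold change of -0.06. Bcl6, a transcriptional repressor, had 955, 1215 and 1157 normalized counts in Control against 622, 674 and 587 in IDPN. The groups were well separated (log2 fold change -0.82, SE 0.18, DESeq2 Padj = 0.000208). Fbxo32, the ubiquitin ligase subunit atrogin-1, had 11880, 10590 and 9478 in Control against 6962, 7133 and 6744 in IDPN. Its log2 fold change was -0.62 (SE 0.15, DESeq2 Padj = 0.00164), without overlap. Under total-count scaling neither passed (Bcl6 -0.58, DESeq2 Padj = 0.145, and Fbxo32 -0.35, DESeq2 Padj = 0.305), and edgeR did not call Fbxo32 (edgeR adjusted p = 0.0660). Without Control 1, Fbxo32 was under the fold threshold (-0.53).

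Growth hormone, which drives Igf1 in liver, acts through Ghr and STAT5. Of 8 genes of this axis, 0 were called, with a median log2 fold change of 0.35. Ghr had 570, 601 and 460 normalized counts in Control against 405, 312 and 389 in IDPN. The groups did not overlap, and the log2 fold change of -0.56 (SE 0.21, DESeq2 Padj = 0.0877) passed without Control 3 (-0.66, DESeq2 Padj = 0.0236). Among 8 tested genes for IGF2 mRNA-binding proteins and imprinted partners, 1 was called, with a median of 0.25. This was Cdkn1c, an imprinted cell cycle inhibitor, at 566, 523 and 401 in Control against 658, 705 and 995 in IDPN. Its log2 fold change of 0.66 (SE 0.22, DESeq2 Padj = 0.0476) was near the threshold, was not called by edgeR (edgeR adjusted p = 0.105), and lost its call without any 1 library other than IDPN 1.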

How the data were processed

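Vestibular epithelium of 3 Control and 3 IDPN mice was analysed by RNA-seq. Per the labels, 6 to 11 ng of total RNA entered a SMART-seq2 protocol with oligo-dT priming, 8 cycles of cDNA and 12 cycles of library amplification, and no molecular identifiers. The authors aligned 76 bp reads with STAR 2.5.3a to GRCm38 and deposited estimated counts (expected counts) from RSEM 2.3.0 on GENCODE M15, given as whole numbers without normalization. RSEM divides reads shared between genes, and the labels state no strand.

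Groups came from the treatment label. Genes were tested with DESeq2 1.42.0 (Wald test, median-of-ratios size factors, no covariate) in R 4.3.3, with calls at Padj under 0.05 and a fold change above 1.5. The Cook's distance filter left 40 genes without p. The quasi-likelihood test of edgeR 4.0.16 was the first alternative. Others were TMM and total-count size factors, at least 10 counts in 3 libraries, independent or Cook's filtering off, a test against the fold threshold, Padj alone, and each library left out. Fits without Control 1 and IDPN 2 together and with offsets for GC content, and the macrophage sum without Lyz2, were added after seeing the data. Gene positions, lengths and overlaps came from GENCODE M21, and promoters from RefSeq on GRCm38.p6 (10 of 10 members matched). An exact counting interval is given for Pappa only, and Stc2 is set against a floor of 3 counts over the group. The scripts were tested on simulated counts.

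The members and gene lists were chosen with earlier results of these data known. Named genes were all members, up to 4 called genes per pathway list, a set of partners whatever their value, and the 3 genes most like each called member. Cyr61 and Ctgf stand outside that rule and were named after their values were seen. No p was adjusted over the members alone.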

Additional observations from a re-analysis of the deposited data

How the results depend on the processing

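With 3 libraries a group, single libraries decided several values, and low counts limited Pappa, Stc2 and H19. Over all genes, 1014 calls became 523 with edgeR (166 higher, 357 lower), 145 when tested against a fold change of 1.5 (34 and 111), and 458 without Control 1 and IDPN 2 together (119 and 339). Without any 1 library the number called higher ran from 234 to 611. Total-count scaling turned 410 higher and 604 lower calls into 609 and 214. Of the members, 2 were called, against 0 when tested against a fold change of 1.5 (Igfbp5 DESeq2 Padj = 0.0817), 1 with GC offsets, and 2 to 3 without any 1 library. In the other pathway lists, 8 genes were called, against 5 with edgeR, 2 when tested against a fold change of 1.5, 3 without Control 1 and IDPN 2 together, and 5 to 11 without any 1 library, the lowest without Control 1. A stricter null leaves fewer calls by construction, and the cause of the other shifts was not tested.

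Directions that reversed belonged to genes that were not called. Total-count scaling gave log2 fold changes of 0.15 for Igf1, 0.23 for Igf1r and 0.24 for Igfbp4. Without any 1 library, Igf1 ran from -0.29 to 0.17, Igf1r from -0.14 to 0.13, Igfbp4 from -0.26 to 0.10 and Ctgf from -0.090 to 2.07. Igf1 was reversed without Control 3 (0.17) and without IDPN 2 (0.17), Igf1r likewise (0.13 and 0.07), Igfbp4 without Control 1 (0.10), Control 2 (0.05) or IDPN 1 (0.05), and Ctgf without IDPN 2 (-0.090). Without Control 1 and IDPN 2 together, the values were 0.079 for Igf1, -0.39 for Igfbp3, 0.0057 for Igfbp4 and -0.26 for Ctgf. Igfbp5 kept its direction in 16 of 16 alternatives and its call in 15, and Igfbp6 its call in 13 of 16. With merged exon length, the Control share of Igfbp5 in the IGFBP sum was 30.3% and that of Igfbp2 34.6%. No paired analysis was made, because each library came from a different animal and the labels give no pairing. The labels give no replicate numbers either, and those used here follow the order of the samples.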

Other observations

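Other genes of the signalling lists shared the high value of IDPN 2 seen for Igfbp3, and were named after their values were seen. Dusp6, a phosphatase that acts on ERK, had 3755, 3627 and 2824 normalized counts in Control against 2445, 13657 and 3551 in IDPN. Spry1, a feedback inhibitor of receptor tyrosine kinase signalling, had 163, 107 and 247 in Control against 133, 715 and 245 in IDPN. Spry4, of the same family, had 115, 87.7 and 145 in Control against 47.2, 373 and 79.3 in IDPN. Socs3, an inhibitor of cytokine and growth hormone signalling, had 156, 91.2 and 169 in Control against 187, 704 and 180 in IDPN. Mest, an imprinted gene, had 3657, 4177 and 4721 in Control against 3364, 9784 and 3036 in IDPN. None of these 5 genes passed the DESeq2 test, with Padj from 0.30 to 0.853.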
